A study of Rattus norvegicus with 30 samples.

Results

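The removal of 30% of the liver was compared with a sham operation in rats. The members are 12 of the 30 arrays of the series, chosen by the treatment stated for each rat: 6 rats after 30% partial hepatectomy (PH30) and 6 after a sham operation. All were wildtype Wistar rats allocated at random, and the liver tissue was taken 24 hours after the operation, snap-frozen and cut to 1 small piece per rat. The other 18 arrays, from rats that had lost 70% (PH70) or 90% (PH90) of the liver or had not been operated on, 6 each, are used to share the estimate of the spread and where PH30 is set against them. The age and sex of the rats, the lobes removed and what the sham operation involved were not given in the sources used here. RNA of whole tissue was hybridised to 1 array for each animal (Affymetrix Rat Gene 2.0 ST), so that replicates are separate rats.

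Partial hepatectomy is the standard model of liver regeneration. Hepatocytes, which rarely divide in the adult, are primed by cytokines and growth factors, pass from quiescence into G1, replicate their DNA and divide until the lost mass is restored, while the remnant goes on with metabolism and the secretion of plasma proteins. A small resection is known for a weak and late wave of DNA synthesis, and a larger one for a strong wave.

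Values are log2 signals from which the median of the probe set over the 30 arrays had been subtracted, so 0 stands for a typical array and only differences between rats can be read. How strongly a gene is expressed is lost, and the labelled tissue could not be checked by the level of hepatocyte markers. Where 3 values are given for a group they are the lowest, the median and the highest of its 6 rats. Differences are PH30 minus sham, with the standard error (SE) and the adjusted p of limma, a linear model fitted to all 18166 named genes (Benjamini-Hochberg adjustment), and a gene was called at an adjusted p below 0.05. In bulk tissue, fewer cells of a type and less RNA per cell cannot be told apart.

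PH30 differed from sham in 1005 of 18166 genes (5.53%), of which 399 were higher (2.2%) and 606 lower (3.34%). Most differences were small: the median size was 0.38 among the higher and 0.42 among the lower genes on the log2 scale, and 25 genes rose and 13 fell by 2-fold or more. The ranges of the 2 groups of rats did not overlap in 177 of the higher and 285 of the lower genes, and in 297 (1.63%) and 410 (2.26%) of all genes, called or not, 707 together (3.89%). An unadjusted p below 0.05 was reached by 3656 genes (20.1%). 2 arrays stood apart from the groups on their labels. PH30 rat 95 correlated on average at 0.498 with PH70 arrays but at -0.113 with its own group, where the mean correlation of each other rat was 0.18 to 0.245. For PH70 rat 139 the mean correlation was -0.114 within its own group, where each other rat had 0.493 to 0.546, and 0.203 with sham arrays. An exchange of samples or labels was not tested, and both rats stand under their labels below, with counts without them given for the main comparisons. Without rat 95, 615 genes were higher and 912 lower. Left out singly, sham rat 114, 143, 141 or 45 or PH30 rat 130 or 65 reduced the higher genes to 238, 245, 256, 257, 243 or 263, and PH30 rat 65 or sham rat 143 the lower genes to 363 or 384. In all, 453 calls (150 higher and 303 lower) held in each of the 12 fits that left out 1 rat, and so did each call of a gene named below unless its loss is stated beside it.

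**Figure D1:**
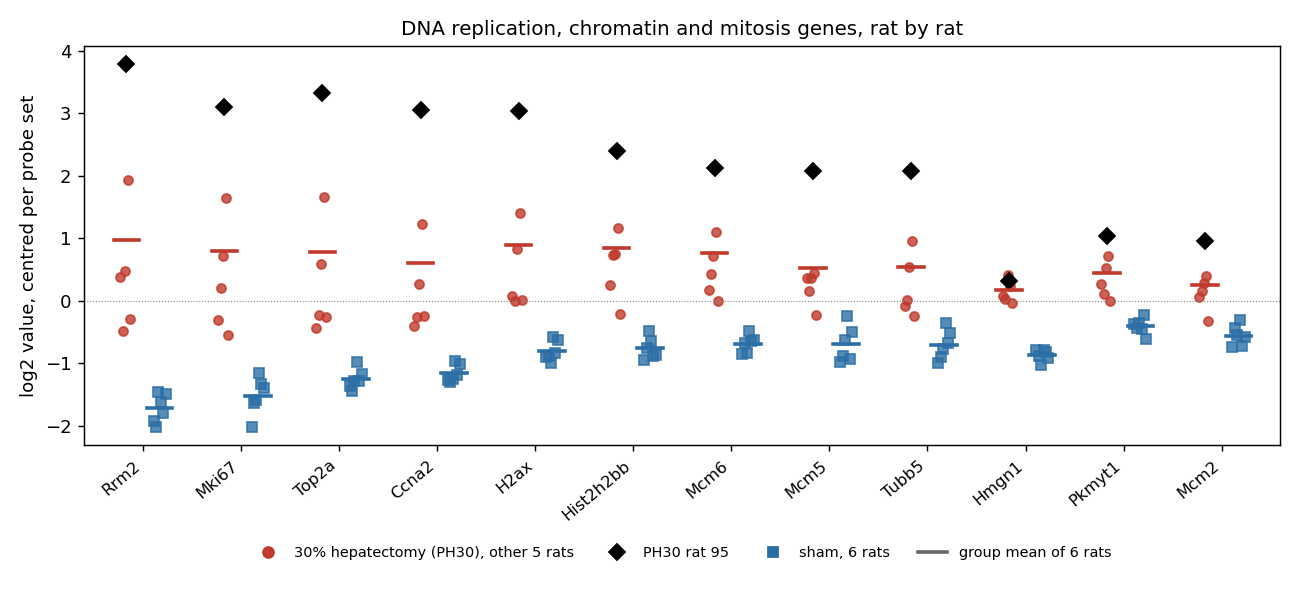
Centred log2 values of 12 genes of DNA replication, chromatin and mitosis in each PH30 rat (left, circles; black diamond, rat 95) and each sham rat (right, squares), with the group mean as a bar. Rat 95 was the highest PH30 rat in 11 of the 12 genes, Hmgn1 being the exception, and the other PH30 rats also lay above sham in all genes shown except for 1 rat in Mcm2.

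Of 122 genes on 4 lists of DNA replication and mitosis, 21 were higher after 30% hepatectomy and 0 lower, beside 2.2% and 3.34% of all genes. Rrm2, the small subunit of ribonucleotide reductase, which supplies the building blocks of DNA, read -0.48, 0.44 and 3.78 in PH30 rats, against -2.01, -1.70 and -1.46 in sham rats, a 6.44-fold rise (log2 difference 2.69, SE 0.59, limma adjusted p = 0.0088). Mki67, the antigen of cycling cells, read -0.55, 0.46 and 3.10 in PH30 rats, against -2.02, -1.50 and -1.16 in sham rats (2.33, SE 0.52, adjusted p = 0.0092). In both genes all 6 PH30 rats lay above all 6 sham rats, with rat 95 far at the top. Ccna2, cyclin A2 of S and G2 phase, read -0.40, 0.016 and 3.05 in PH30 rats, against -1.29, -1.22 and -0.96 in sham rats (1.77, SE 0.45, adjusted p = 0.018), again without overlap. Top2a, the topoisomerase that untangles DNA before division, read -0.44, 0.18 and 3.33 in PH30 rats, against -1.45, -1.28 and -0.97 in sham rats (2.03, SE 0.52, adjusted p = 0.019), a call that ended on leaving out PH30 rat 130.

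The helicase that opens DNA at replication origins was represented by Mcm2, Mcm5 and Mcm6. Mcm6 read -0.0047, 0.57 and 2.13 in PH30 rats, against -0.86, -0.65 and -0.49 in sham rats (1.44, SE 0.35, adjusted p = 0.015). Mcm5 read -0.22, 0.36 and 2.08 in PH30 rats, against -0.98, -0.75 and -0.25 in sham rats (1.23, SE 0.33, adjusted p = 0.026). The groups did not overlap in either gene, and the call of Mcm5 was lost without sham rat 41, 114 or 141. Mcm2 rose by 0.81 (SE 0.21, adjusted p = 0.022) with 5 of 6 PH30 rats above all sham rats. Pkmyt1, a kinase that holds Cdk1 inactive before mitosis, read 0.00097, 0.40 and 1.04 in PH30 rats, against -0.61, -0.40 and -0.22 in sham rats (0.86, SE 0.21, adjusted p = 0.015). Dnmt1, which copies DNA methylation onto new strands, rose by 0.54 (SE 0.14, adjusted p = 0.02), and the groups of both genes were apart. Plk1, a kinase of mitotic entry, and Pcna, the clamp that ties polymerases to DNA, were called at adjusted p = 0.043 and 0.04 with differences of 1.55 (SE 0.46) and 1.06 (SE 0.31). Both kept the call in only 3 of the 12 fits that left out a rat, those without PH30 rat 65, 98 or 140, and without rat 95 their differences were 1.06 (adjusted p = 0.079) and 0.78 (adjusted p = 0.08). With the 12 arrays alone Plk1 was not called either (adjusted p = 0.073).

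The start regions of 4 of these genes are shown because the genes moved together and carry the sequence words best known from cell cycle promoters. In mammals E2F factors switch on genes of DNA replication at the start of S phase, while the cell cycle homology region (CHR) and CCAAT boxes are typical of genes that peak before mitosis. Each sequence holds 250 bases before and 50 after the gene's start (RefSeq, GRCr8), on the strand of the gene, with capitals for E2F words (TTTCCCGC, TTTGGCGC, TTCCCGCC and TTGGCGCC, which can overlap each other), the CHR word (TTTGAA) and the CCAAT word, each searched on both strands. Mcm6 lies at chr13:42404303-42404602 on the minus strand, Mcm5 at chr19:13488563-13488862 on the plus strand, Plk1 at chr1:186147408-186147707 on the plus strand and Top2a at chr10:84473044-84473343 on the minus strand.
Mcm6: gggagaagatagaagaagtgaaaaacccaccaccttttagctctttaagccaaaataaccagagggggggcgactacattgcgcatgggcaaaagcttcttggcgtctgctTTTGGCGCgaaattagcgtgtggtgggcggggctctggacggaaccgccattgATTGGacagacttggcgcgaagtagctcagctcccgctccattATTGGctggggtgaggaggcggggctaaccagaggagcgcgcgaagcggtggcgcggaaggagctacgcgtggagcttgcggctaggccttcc
Mcm5: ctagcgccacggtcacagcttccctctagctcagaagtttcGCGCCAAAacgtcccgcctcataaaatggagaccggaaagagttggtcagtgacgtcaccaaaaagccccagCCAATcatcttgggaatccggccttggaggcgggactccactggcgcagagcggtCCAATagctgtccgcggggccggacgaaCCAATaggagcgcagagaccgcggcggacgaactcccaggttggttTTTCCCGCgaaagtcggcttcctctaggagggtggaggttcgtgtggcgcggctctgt
Plk1: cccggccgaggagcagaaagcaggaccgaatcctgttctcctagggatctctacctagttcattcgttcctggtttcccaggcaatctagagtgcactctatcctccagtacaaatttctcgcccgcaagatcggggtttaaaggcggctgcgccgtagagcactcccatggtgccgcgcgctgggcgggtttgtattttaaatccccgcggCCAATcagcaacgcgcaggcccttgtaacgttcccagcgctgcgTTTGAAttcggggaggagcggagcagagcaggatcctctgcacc
Top2a: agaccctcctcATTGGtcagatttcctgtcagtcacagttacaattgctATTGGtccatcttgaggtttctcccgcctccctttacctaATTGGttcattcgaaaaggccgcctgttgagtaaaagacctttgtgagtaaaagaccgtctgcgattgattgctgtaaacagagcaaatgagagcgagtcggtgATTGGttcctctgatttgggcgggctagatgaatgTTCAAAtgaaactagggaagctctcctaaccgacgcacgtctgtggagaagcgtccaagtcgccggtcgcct

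Mcm6 held 1 E2F word that begins 139 bases before the start and Mcm5 held 2, at 8 and 209 bases before it, whereas Plk1 and Top2a each held 1 CHR word near the start. All 4 held CCAAT words, from 1 in Plk1 to 4 in Top2a. Of the 21 called genes on the 4 lists of replication and mitosis, 18 had a promoter in the RefSeq table. Among these 18, 8 held an E2F word (44.4%), 7 a CHR word (38.9%) and 13 a CCAAT word (72.2%). The shares were 28.2%, 44.7% and 63.1% among all 103 members of those lists with a promoter, called or not. They were 10.9%, 14.4% and 41.3% among the 341 genes called higher with a promoter and 5.28%, 13.1% and 38.7% among the 511 called lower. Among the 14564 genes tested with a promoter the shares were 5.14%, 15.9% and 37.9%. Among all 27457 promoters of the table they were 3.62%, 18.1% and 37.7%. A match is a description of the letters and shows no binding. Rrm2, Ccna2 and Pkmyt1 have no entry in the table.

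By list, 6 of 25 measured genes of origin licensing and firing rose and 0 fell, with a median difference of 0.36, beside a median of 0.011 over all genes tested. The count was 2 without sham rat 114 or 141 and 3 without sham rat 41. Of 30 genes of the replication fork and DNA precursors 7 rose (median 0.50), but 2 without PH30 rat 95 or 130 or sham rat 141, 3 without PH30 rat 99 or sham rat 112, 114 or 143, 4 without sham rat 45 and 14 without PH30 rat 140. Of 24 mitotic cyclins and kinases 4 rose (median 0.76), and 2 without PH30 rat 95 or 130 or any 1 of sham rats 41, 45, 112, 114 and 141. Of 43 genes of the spindle, kinetochore and cytokinesis 4 rose (median 0.91), but 1 without PH30 rat 130, 2 without sham rat 45, 114 or 143 and 14 without PH30 rat 140. Without rat 95, 4 origin genes were higher and 2 lower. The counts depended on the processing even more, and 4 settings gave more risen genes in each list. Quantile normalisation, here and below, acted on the centred values. It made the spread of deviations alike on all arrays, not that of signals, also where arrays differ in truth. In the order origin, fork, mitotic and spindle, 14, 18, 18 and 38 genes rose after quantile normalisation of the arrays, 12, 14, 9 and 21 with array weights, 11, 13, 11 and 26 without PH30 rat 95 and PH70 rat 139, and 13, 17, 13 and 27 with the PH30 and sham arrays alone and rat 95 left out. With all 12 arrays alone they were 7, 12, 2 and 6. At most 2 origin genes and 0 genes of the other 3 lists fell in any of these. Cdk1, the kinase of mitosis, was not called and read -0.34, 0.20 and 2.35 in PH30 rats, against -0.80, -0.66 and -0.39 in sham rats (1.19, SE 0.40, adjusted p = 0.076) with no overlap. It passed without rats 95 and 139 (adjusted p = 0.021), but not without rat 95 alone (0.83, adjusted p = 0.17). Nor did it pass with the 12 arrays alone (adjusted p = 0.072). Of the 12 fits that left out a rat, 1 called it.

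**Figure D2:**
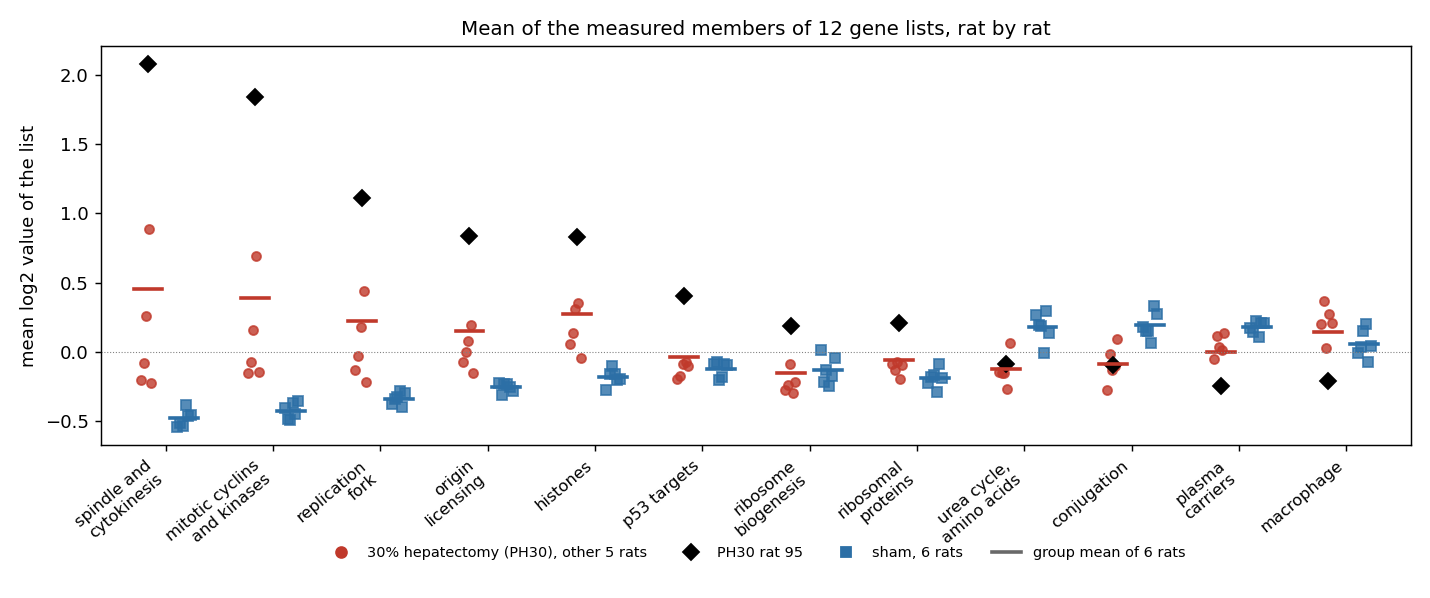
Mean centred log2 value of the measured members of 12 gene lists in each PH30 rat (left, circles; black diamond, rat 95) and each sham rat (right, squares), with group means as bars. The 4 lists of replication and mitosis and the histones lie above sham in every PH30 rat, with rat 95 highest, whereas in p53 targets rat 95 alone lies above the sham range.

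The mean of each rat shows how unevenly the rats took part. The spindle and cytokinesis genes averaged 2.08 in PH30 rat 95 and -0.23 to 0.89 in the remaining 5 PH30 rats, against -0.55 to -0.38 in sham rats. Rat 130 was second in each of the 4 replication and mitosis lists, and rats 65, 98 and 140 lay nearest to sham. For origin licensing the means were 0.84 in rat 95 and -0.15 to 0.19 in the other 5, against -0.31 to -0.23 in sham. Thus every PH30 rat had a higher mean than every sham rat in these lists, also without rat 95.

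The mean difference was smaller against unoperated rats in several of these genes. Mki67 read -0.55, 0.46 and 3.10 in PH30 rats, against -0.047, 0.035 and 0.19 in unoperated rats (0.76, adjusted p = 0.4), and Top2a read -0.44, 0.18 and 3.33, against -0.29, 0.20 and 0.44 (0.61, adjusted p = 0.52). Rrm2, Ccna2, Plk1, Pcna and Dnmt1 were not called either, at 1.14, 0.46, 0.42, 0.75 and 0.34 (adjusted p = 0.24, 0.58, 0.63, 0.13 and 0.12). Without PH30 rat 95 and PH70 rat 139, Mki67, Top2a, Ccna2 and Plk1 differed by 0.30, 0.096, -0.026 and -0.072 (adjusted p = 0.66, 0.89, 0.96 and 0.90). Of the 43 spindle genes 0 were called by limma against unoperated rats, and of the 24 mitotic cyclins and kinases 2 were higher (0 without rat 95). Mcm6 did differ, with -0.0047, 0.57 and 2.13 in PH30 rats, against -0.71, -0.52 and -0.30 in unoperated rats (1.29, adjusted p = 0.018). So did Mcm5, Mcm2 and Pkmyt1, by 1.06, 0.72 and 0.64 (adjusted p = 0.038, 0.028 and 0.048). Of 25 origin genes 6 were higher and 2 lower (3 and 2 without rat 95). PH30 differed from unoperated rats in 1789 genes (9.85%), 632 higher (3.48%) and 1157 lower (6.37%), and this comparison shares the PH30 arrays with that against sham.

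Histones and chromatin proteins were higher too. H2ax, a histone variant known from the marking of DNA breaks, read -0.0003, 0.45 and 3.03 in PH30 rats, against -1.0, -0.86 and -0.58 in sham rats (1.70, SE 0.41, adjusted p = 0.015), without overlap. Hist2h2bb, a histone H2B gene, read -0.21, 0.74 and 2.39 in PH30 rats, against -0.95, -0.81 and -0.48 in sham rats (1.61, SE 0.37, adjusted p = 0.011), and Hist2h3c2, a histone H3 gene, rose by 1.41 (SE 0.35, adjusted p = 0.015). The H2A genes H2ac12 and H2ac4 rose by 1.22 (SE 0.27, adjusted p = 0.0093) and 1.37 (SE 0.36, adjusted p = 0.023), the groups overlapping by 1 rat in H2ac4. Hmgn1, which binds nucleosomes, was unlike the genes above in that its PH30 rats lay close together, at -0.032, 0.16 and 0.42, against -1.03, -0.85 and -0.78 in sham rats (1.04, SE 0.21, adjusted p = 0.0063), and rat 95 (0.31) was not the highest. The histone list of 23 measured genes holds H2ax, Hist2h3c2 and H2ac4 but neither Hist2h2bb nor H2ac12, which were named for the size of their rise. Of the 23, 5 rose and 0 fell (median 0.30), with 3 without PH30 rat 130 or sham rat 141 and 9 after quantile normalisation. Histone genes, Hmgn1 and ribosomal protein genes have near-identical copies in the genome, and probes may not part them. Tubb5, a beta tubulin, read -0.24, 0.27 and 2.08 in PH30 rats, against -1.0, -0.72 and -0.35 in sham rats (1.24, SE 0.30, adjusted p = 0.013), with the groups apart.

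The switches between quiescence and cycling changed in a few members. Rbl2, the pocket protein p130 that holds E2F targets silent in resting cells, fell, with -0.30, -0.046 and 0.12 in PH30 rats, against 0.31, 0.36 and 0.46 in sham rats (-0.45, SE 0.10, adjusted p = 0.011) and no overlap. Against unoperated rats Rbl2 was not called (-0.24, adjusted p = 0.16). E2f8, an E2F repressor that acts late in S phase, rose, with -0.057, 0.30 and 0.89 in PH30 rats, against -0.58, -0.34 and -0.11 in sham rats (0.68, SE 0.16, adjusted p = 0.011). Its partner E2f7 rose by 0.69 (adjusted p = 0.033), a call that ended on leaving out PH30 rat 65 or 95 or sham rat 45, 114, 141 or 143. Ccnd1, cyclin D1 of the G1 phase, read -0.33, -0.048 and 0.71 in PH30 rats, against -0.87, -0.65 and -0.37 in sham rats; the groups were apart. The difference (0.69, SE 0.29) had an adjusted p = 0.17 in the fit of all 30 arrays and did not pass, but passed with the 12 PH30 and sham arrays alone (adjusted p = 0.013). Myc, a factor of cell growth, differed by 0.24 (SE 0.23, adjusted p = 0.63). On the list of 32 G1 cyclins, E2F factors and inhibitors 2 rose and 1 fell, and the 2 became 1 without PH30 rat 65 or 95 or sham rat 45, 114, 141 or 143, 4 without PH30 rat 140 and 8 after quantile normalisation.

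Cdkn1a, a p53 target whose product p21 halts the cell cycle, stood apart in 1 rat. It read 1.72 in rat 95, with -0.78, -0.36 and 1.72 over the PH30 rats, against -0.78, -0.62 and 0.35 in sham rats, a difference of 0.34 (SE 0.31, adjusted p = 0.6) that was -0.023 without rat 95. The mean of 19 measured p53 targets was 0.40 in rat 95 and -0.19 to -0.075 in the remaining 5 PH30 rats, against -0.21 to -0.072 in sham rats. The only called member was Rrm2b, the p53-inducible counterpart of Rrm2, which fell, with -0.62, -0.31 and 0.16 in PH30 rats, against 0.0084, 0.17 and 0.56 in sham rats (-0.56, SE 0.14, adjusted p = 0.015). In rat 95 it lay within the sham range (0.16). Rrm2 and Rrm2b, alternative small subunits of ribonucleotide reductase, thus moved in opposite directions.

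Signals that restrain or drive growth moved singly. Tgfb1, transforming growth factor beta, which stops hepatocyte division in culture, read -0.23, 0.33 and 0.48 in PH30 rats, against -0.48, -0.24 and 0.034 in sham rats (0.50, SE 0.12, adjusted p = 0.014). Rat 95 (-0.23) was the 1 PH30 rat inside the sham range. The type 2 receptors Bmpr2, for bone morphogenetic proteins, and Acvr2a, for activin, fell, with differences of -0.36 (SE 0.09, adjusted p = 0.017) and -0.26 (SE 0.068, adjusted p = 0.02). The first call was lost without sham rat 143 and the second without PH30 rat 65 or sham rat 45. With the 12 arrays alone Acvr2a was not called (adjusted p = 0.073). These were the 3 called members of 38 measured in the TGF-beta, activin and BMP list. Egr1, an immediate early factor, read -1.25, 0.50 and 1.67 in PH30 rats, against -1.55, -1.25 and -0.019 in sham rats (1.34, SE 0.38, adjusted p = 0.034), a call kept in only 4 of 12 fits, those without PH30 rat 65 or 95 or sham rat 114 or 143, and lost with the 12 arrays alone (adjusted p = 0.058). Egfr, the receptor of epidermal growth factor, differed by -0.42 (SE 0.12, adjusted p = 0.033) and was called in 5 of 12 fits, not in those without PH30 rat 95, 98 or 130 or sham rat 45, 114, 141 or 143, and not with the 12 arrays alone (adjusted p = 0.052). Against unoperated rats Egfr differed by -0.049 (adjusted p = 0.85). Of 36 growth factor ligands and receptors Egfr was the only one called against sham, and Hgf, the main mitogen of hepatocytes, differed from sham by -0.34 (SE 0.20, adjusted p = 0.38). Of 21 YAP and TEAD targets 0 were called by limma, 1 of them at an unadjusted p below 0.05.

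Of the genes of glucocorticoid action, the receptor, an enzyme and a target were lower after 30% hepatectomy. Glucocorticoids act through a nuclear receptor, and hepatocytes renew the active hormone from its inactive form. Nr3c1, the receptor, read -0.42, -0.11 and 0.017 in PH30 rats, against 0.40, 0.70 and 0.95 in sham rats, a 1.75-fold fall (-0.81, SE 0.13, adjusted p = 0.0019). Hsd11b1, the enzyme that renews the hormone, read -0.34, -0.04 and 0.13 in PH30 rats, against 0.35, 0.54 and 0.71 in sham rats (-0.60, SE 0.13, adjusted p = 0.0077). All PH30 rats lay below all sham rats in both genes, rat 95 among them. Dusp1, a phosphatase of MAP kinases and a classic target of the receptor, read -0.85, -0.24 and 0.14 in PH30 rats, against 0.28, 0.62 and 1.36 in sham rats (-1.09, SE 0.28, adjusted p = 0.019), a call that ended on leaving out PH30 rat 98 or sham rat 114 or 141. Against unoperated rats Nr3c1 differed by -0.75 (adjusted p = 0.00028) and Hsd11b1 by -0.60 (adjusted p = 0.0029). Of 22 measured genes on the glucocorticoid list these 3 fell, 1 rose, Lcn2, and the median was -0.25. The falls were 2 without PH30 rat 98 or sham rat 114 or 141, 5 without PH30 rat 140 and 6 after quantile normalisation. The mean of the list was -0.11 to 0.03 in PH30 rats, against -0.031 to 0.43 in sham rats, highest in sham rat 141, so the groups overlapped. Against unoperated rats 3 members were higher and 4 lower, with a median of -0.015. Of 20 clock genes 0 were called by limma, with 1 at an unadjusted p below 0.05.

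**Figure D3:**
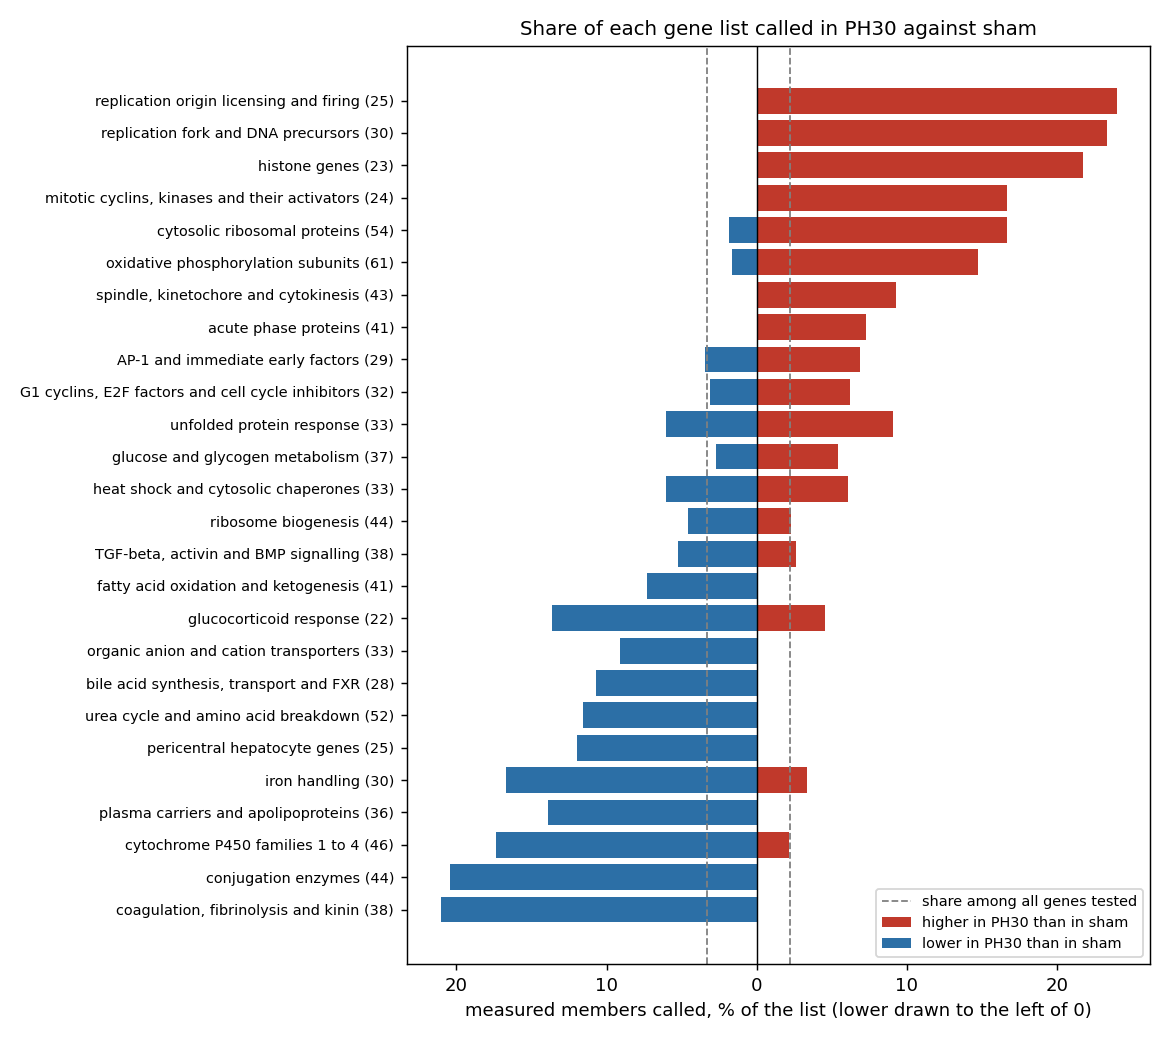
Percent of the measured members of each gene list called higher (bars to the right) or lower (bars to the left) in PH30 than in sham, with the number measured in brackets; dashed lines mark the shares among all genes tested, 2.2% higher and 3.34% lower. Lists with at least 3 called members are shown, from replication and histone lists at the top to coagulation and conjugation at the bottom.

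Parts of the protein synthesis machinery and of the respiratory chain were slightly higher. Among cytosolic ribosomal proteins 9 of 54 rose and 1 fell, with a median difference of 0.15. Rpl7a read -0.16, 0 and 0.056 in PH30 rats, against -0.79, -0.62 and -0.48 in sham rats (0.61, SE 0.11, adjusted p = 0.003), and Rps19 read -0.18, 0.026 and 0.19 in PH30 rats, against -0.58, -0.41 and -0.29 in sham rats (0.43, SE 0.08, adjusted p = 0.0032). Rps14 and Rps20 rose by 0.43 (SE 0.099, adjusted p = 0.011) and 0.44 (SE 0.11, adjusted p = 0.018), and the groups did not overlap in any of the 4. Over the whole list the groups did overlap, with means of -0.20 to 0.21 in PH30 rats, against -0.29 to -0.09 in sham rats, rat 95 the highest. Against unoperated rats 7 were higher and 2 lower, beside 3.48% and 6.37% of all genes. Of genes that build ribosomes, 1 of 44 rose and 2 fell, and the 2 became 0 without PH30 rat 65, 98 or 130 or sham rat 45, 114 or 143, 1 without PH30 rat 99 or 140 or sham rat 141, 7 without PH30 rat 95 and 5 after quantile normalisation. The one that rose, Nhp2, a protein of the snoRNPs that modify ribosomal RNA, read -0.33, 0.069 and 1.0 in PH30 rats, against -0.67, -0.58 and -0.40 in sham rats (0.71, SE 0.18, adjusted p = 0.019).

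Of 61 measured subunits of oxidative phosphorylation 9 rose and 1 fell (median 0.059), and 4 rose without PH30 rat 65 and 5 without PH30 rat 98 or sham rat 143, against 15 after quantile normalisation. Set against unoperated rats, 5 of the 61 were higher and 9 lower (median -0.047), beside 3.48% and 6.37% of all genes. Cox5b, of complex IV, read -0.11, 0.027 and 0.15 in PH30 rats, against -0.72, -0.40 and -0.28 in sham rats (0.46, SE 0.082, adjusted p = 0.003). Uqcrq, of complex III, read -8.5e-05, 0.32 and 0.54 in PH30 rats, against -0.17, -0.092 and 8.5e-05 in sham rats (0.39, SE 0.065, adjusted p = 0.0021), the groups meeting in rat 95. The complex I subunits Ndufb7 and Ndufa11 rose by 0.44 (SE 0.086, adjusted p = 0.0051) and 0.37 (SE 0.083, adjusted p = 0.0092). Sdha, the catalytic subunit of complex II, was the one that fell, with -0.25, -0.18 and 0.0056 in PH30 rats, against 0.17, 0.30 and 0.46 in sham rats (-0.44, SE 0.091, adjusted p = 0.0065) and no overlap. Hspe1, the small chaperonin of mitochondria, rose, with -0.087, 0.046 and 0.26 in PH30 rats, against -1.06, -0.50 and -0.36 in sham rats (0.68, SE 0.15, adjusted p = 0.0077).

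Part of the enzymes that handle drugs and foreign compounds was lower. Fmo1, a flavin monooxygenase, read -0.52, -0.17 and 0.42 in PH30 rats, against 0.74, 1.05 and 1.21 in sham rats, a 2.12-fold fall (-1.08, SE 0.19, adjusted p = 0.0032). Inmt, an N-methyltransferase, read -0.33, -0.15 and 0.76 in PH30 rats, against 0.38, 1.30 and 1.94 in sham rats (-1.12, SE 0.21, adjusted p = 0.0032). The groups were apart in Fmo1 and overlapped in Inmt, where 4 of 6 PH30 rats lay below all sham rats. Sulfation was touched at the donor and the enzyme: Papss2, which makes the activated sulfate, read -0.52, -0.21 and 0.055 in PH30 rats, against 0.32, 0.70 and 0.95 in sham rats (-0.91, SE 0.17, adjusted p = 0.004). Sult1c2a, a sulfotransferase, read -0.50, -0.024 and 0.34 in PH30 rats, against 0.59, 0.90 and 1.27 in sham rats (-0.95, SE 0.20, adjusted p = 0.0065), also without overlap. Gstm7, a glutathione transferase, fell by 0.70 on the log2 scale (SE 0.14, adjusted p = 0.0063). Of 44 conjugation enzymes 9 fell and 0 rose, with a median of -0.16, and 14 fell after quantile normalisation. Against unoperated rats 20 were lower and 0 higher. Of all genes 3.34% were lower against sham and 6.37% against unoperated rats.

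Among the cytochrome P450 families 1 to 4, 8 of 46 fell and 1 rose (median -0.18), and 4 fell without sham rat 114 or 143 and 5 without PH30 rat 95 or 99 or sham rat 45. Against unoperated rats 12 were lower and 2 higher, beside 6.37% and 3.48% of all genes. Cyp2c11, the main P450 of male rats, read -0.45, -0.10 and 0.25 in PH30 rats, against 0.46, 0.71 and 0.92 in sham rats (-0.81, SE 0.18, adjusted p = 0.0081), without overlap. Cyp2c23, which makes epoxides of arachidonic acid, read -0.29, 0 and 0.042 in PH30 rats, against 0.14, 0.40 and 0.59 in sham rats (-0.49, SE 0.12, adjusted p = 0.017). Cyp2d2 and Cyp2d3, of the family that oxidises many drugs, fell, with differences of -0.44 (SE 0.10, adjusted p = 0.013) and -0.54 (SE 0.12, adjusted p = 0.008). P450s and sulfotransferases of 1 family are near-identical in parts, so probes of one member may read another. Cyp7a1, the rate-limiting enzyme of bile acid synthesis, overlapped widely, with 0.096, 0.53 and 0.67 in PH30 rats, against -1.12, 0.29 and 1.59 in sham rats (0.11, SE 0.49, adjusted p = 0.94). Hsd3b7, a later enzyme of that pathway, fell by 0.39 (SE 0.10, adjusted p = 0.018). Slc22a8, an importer of organic anions, read -0.26, 0 and 0.22 in PH30 rats, against 0.67, 0.82 and 0.96 in sham rats (-0.81, SE 0.18, adjusted p = 0.0081), without overlap. Against unoperated rats Slc22a8 was not called (-0.47, adjusted p = 0.092), except without rats 95 and 139 (-0.42, adjusted p = 0.037). Of 33 organic anion and cation transporters 3 fell and 0 rose against sham (median -0.024), and 1 fell without PH30 rat 65 or 99 or sham rat 143.

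Breakdown of amino acids and fatty acids was lower in part. Ivd and Mccc2 act in the breakdown of leucine: Ivd read -0.091, -0.045 and 0.18 in PH30 rats, against 0.44, 0.62 and 0.71 in sham rats (-0.62, SE 0.11, adjusted p = 0.0032), and Mccc2 fell by 0.38 (SE 0.094, adjusted p = 0.016), both without overlap. Otc, of the urea cycle, read -0.30, -0.015 and 0.45 in PH30 rats, against 0.33, 0.60 and 0.69 in sham rats (-0.59, SE 0.13, adjusted p = 0.0077), with 5 of 6 PH30 rats below all sham rats. Slc25a15, which carries ornithine into mitochondria for that cycle, read -1.01, -0.65 and 0.40 in PH30 rats, against -0.13, 0.22 and 0.78 in sham rats (-0.84, SE 0.19, adjusted p = 0.011), and rat 95 alone (0.40) lay in the sham range. Of 52 genes of the urea cycle and amino acid breakdown 6 fell and 0 rose (median -0.29). The count was 4 without PH30 rat 98 or 130 or sham rat 45 or 114. It was 13 with the 12 arrays alone and 18 after quantile normalisation. Of all genes 3.34% were lower against sham. Against unoperated rats 14 of the 52 were lower and 0 higher, beside 6.37% and 3.48% of all genes.

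Bdh1, which makes the ketone body hydroxybutyrate, read -0.47, -0.10 and 0.30 in PH30 rats, against 0.55, 0.90 and 1.0 in sham rats (-0.93, SE 0.23, adjusted p = 0.017). Acox3, a peroxisomal acyl-CoA oxidase, read -0.25, -0.075 and 0.11 in PH30 rats, against 0.35, 0.48 and 0.58 in sham rats (-0.54, SE 0.12, adjusted p = 0.0083). Both genes parted the groups, and 3 of 41 genes of fatty acid oxidation and ketogenesis fell and 0 rose (median -0.17). The count was 2 without PH30 rat 65 or 99 or sham rat 114 or 143. It was 5 without PH30 rat 140, 6 without sham rat 112, 7 with the 12 arrays alone and 13 after quantile normalisation. For this list and those below, the share of all genes called lower against sham was 3.34%. Against unoperated rats 14 of the 41 were lower and 0 higher, beside 6.37% and 3.48% of all genes. Aldh3a2, which oxidises fatty aldehydes, fell by 0.53 (SE 0.12, adjusted p = 0.012). Dgat2, of triglyceride synthesis, and Insig2, a brake on lipid synthesis, fell, with differences of -0.47 (adjusted p = 0.034) and -0.71 (adjusted p = 0.027). Dgat2 was called in 4 of 12 fits, those without PH30 rat 95 or 140 or sham rat 112 or 143, and Insig2 was not called on dropping PH30 rat 65 or 99 or sham rat 143. These were the 2 called of 29 lipogenesis genes, 0 without PH30 rat 65 or 99 and 1 without PH30 rat 98 or 130 or sham rat 41, 45, 114, 141 or 143. Of 20 genes of cholesterol synthesis 0 were called by limma, with 4 at an unadjusted p below 0.05. In retinoid metabolism, Dhrs3, which reduces retinal, read -0.21, -0.037 and 0.15 in PH30 rats, against 0.24, 0.43 and 0.54 in sham rats (-0.46, SE 0.11, adjusted p = 0.015), and with Rdh16 it made up the 2 called members of 33, with 6 after quantile normalisation.

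**Figure D4:**
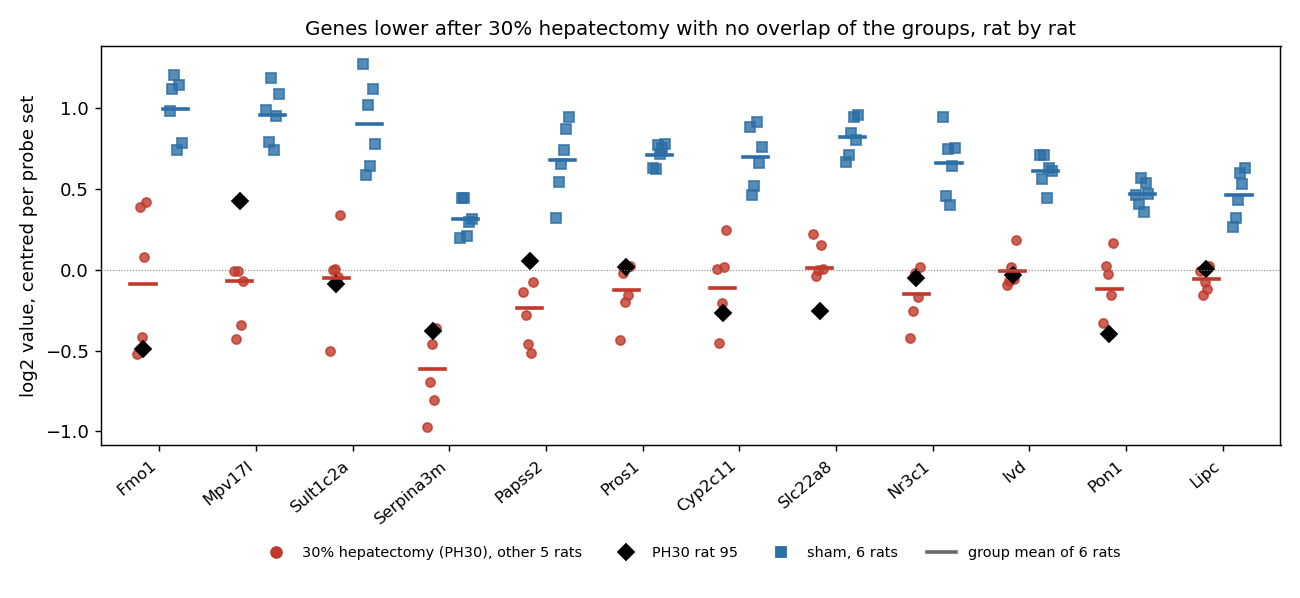
Centred log2 values of 12 genes that were lower in PH30 rats (left, circles; black diamond, rat 95) than in sham rats (right, squares), with group means as bars. In each of the 12 the highest PH30 rat lies below the lowest sham rat, and rat 95 is the highest PH30 rat in 2 (Mpv17l and Papss2) and the lowest in 2 (Slc22a8 and Pon1).

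Secreted proteins fell in part. Pros1, the anticoagulant protein S, read -0.43, -0.088 and 0.026 in PH30 rats, against 0.62, 0.74 and 0.78 in sham rats (-0.84, SE 0.15, adjusted p = 0.0032), and F9, clotting factor IX, fell by 0.39 (SE 0.085, adjusted p = 0.0081). Of 38 genes of coagulation, fibrinolysis and kinins 8 fell and 0 rose (median -0.079), but 4 without PH30 rat 99 or sham rat 141 and 5 without PH30 rat 65, 98 or 130 or sham rat 45, 114 or 143. Against unoperated rats 7 of the 38 were higher and 6 lower (median -0.013), and F9 differed by -0.10 (adjusted p = 0.52). Pon1, a paraoxonase that travels on lipoproteins, read -0.39, -0.09 and 0.17 in PH30 rats, against 0.36, 0.47 and 0.57 in sham rats (-0.59, SE 0.11, adjusted p = 0.0035). Its relative Pon3 fell by 0.60 (SE 0.12, adjusted p = 0.0063), and neither overlapped. Lipc, the hepatic lipase, read -0.16, -0.041 and 0.024 in PH30 rats, against 0.26, 0.48 and 0.63 in sham rats (-0.52, SE 0.11, adjusted p = 0.0069). Of 36 plasma carriers and apolipoproteins 5 fell and 0 rose (median -0.15), 3 without sham rat 114 or 143, 9 with the 12 arrays alone and 10 after quantile normalisation. Serpina3m, a serine protease inhibitor, read -0.97, -0.58 and -0.36 in PH30 rats, against 0.20, 0.30 and 0.44 in sham rats (-0.93, SE 0.19, adjusted p = 0.0063), and C8g, of complement component 8, fell by 0.32 (SE 0.083, adjusted p = 0.021). Of 41 acute phase proteins 3 rose and 0 fell against sham (0 rose without PH30 rat 98 or sham rat 114, 1 without PH30 rat 65 or 130 or sham rat 45 or 143), whereas 20 were higher and 0 lower against unoperated rats. Of 33 complement genes 2 fell and 0 rose against sham, and 10 were higher and 2 lower against unoperated rats. Of all genes 2.2% rose and 3.34% fell against sham, and 3.48% were higher and 6.37% lower against unoperated rats. Alb, albumin, read -0.074, -0.01 and 0.019 in PH30 rats, against -0.033, 0.008 and 0.024 in sham rats (-0.025, SE 0.032, adjusted p = 0.73). Igf1 and Afp, the fetal counterpart of albumin, differed by -0.086 (SE 0.072) and 0.082 (SE 0.14), with adjusted p = 0.57 and 0.82.

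Iron and stress genes gave single changes. Ncoa4, which delivers ferritin to the lysosome for iron release, read -0.54, -0.38 and 0.00059 in PH30 rats, against 0.036, 0.17 and 0.32 in sham rats (-0.52, SE 0.092, adjusted p = 0.003). It was 1 of 5 of 30 iron genes that fell, while 1 rose, Lcn2 (median -0.022). The falls were 1 without PH30 rat 65 or 99 or sham rat 143 and 2 without PH30 rat 130 or sham rat 141. They were 3 without PH30 rat 98 or sham rat 41, 45 or 112. Bnip3l, a receptor for the removal of mitochondria, fell by 0.52 (SE 0.13, adjusted p = 0.016). Rbm3, an RNA-binding protein induced by mild cold, and Aldoa, the aldolase of glycolysis, rose by 0.68 (SE 0.16, adjusted p = 0.014) and 0.39 (SE 0.088, adjusted p = 0.0091). Of 33 heat shock and chaperone genes, a list that holds Rbm3 and Hspe1, 2 rose and 2 fell (median 0.069). A second cold-inducible RNA-binding gene was among those that fell. Over the fits that left out 1 rat, 2 to 3 of the list rose and 0 to 4 fell.

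Markers of other cells changed singly, and most lists of them lay near the median of all genes. Of 24 macrophage and Kupffer cell markers 2 rose and 0 fell (median 0.054), and 4 rose without rats 95 and 139. Lgals3, galectin 3, read -0.27, 0 and 0.45 in PH30 rats, against -1.22, -0.75 and -0.50 in sham rats (0.80, SE 0.14, adjusted p = 0.0021), without overlap. Marco, a scavenger receptor of Kupffer cells, read -0.38, 0.95 and 1.10 in PH30 rats, against -0.38, -0.14 and 0.048 in sham rats (0.84, SE 0.20, adjusted p = 0.015), and rat 95 (-0.38) lay below all sham rats while the others lay above them. The mean of the list was -0.21 in rat 95 and 0.027 to 0.37 in the remaining 5 PH30 rats, against -0.072 to 0.20 in sham rats. Adgre4, an adhesion receptor known from mouse macrophages, moved the other way, with -0.55, -0.19 and 0.12 in PH30 rats, against 0.50, 0.71 and 0.95 in sham rats (-0.92, SE 0.20, adjusted p = 0.0077).

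Of 19 neutrophil markers 1 rose, Lcn2, an iron-scavenging protein that hepatocytes also make in the acute phase, which read -1.69, 0.66 and 1.59 in PH30 rats, against -2.32, -1.70 and -0.24 in sham rats (1.67, SE 0.46, adjusted p = 0.031). It was no longer called on dropping PH30 rat 65, 98 or 130 or sham rat 45, 114 or 143, nor with the 12 arrays alone (adjusted p = 0.12). Timp1, an inhibitor of matrix proteases, was 1 of 2 of 45 stellate and matrix markers that rose, by 1.19 (SE 0.30, adjusted p = 0.019), and was not called on dropping PH30 rat 98 or sham rat 41, 45 or 114, nor with the 12 arrays alone (adjusted p = 0.085). That list had 0 risen members without sham rat 114, 1 without PH30 rat 98 or sham rat 41 or 45, and 5 without PH30 rat 95. Ehd3, an endothelial marker, differed by -0.60 (adjusted p = 0.046) but of the 12 fits that left out a rat only those without PH30 rat 140 or sham rat 141 called it. It was the 1 called of 25 endothelial markers, whose median was 0.031. At an unadjusted p below 0.05, 6 of them were higher and 2 lower. Without PH30 rat 95, 2 were called higher and 0 lower. Krt18, a keratin of hepatocytes and bile ducts, read -0.28, 0 and 0.32 in PH30 rats, against -0.96, -0.77 and -0.33 in sham rats (0.77, SE 0.15, adjusted p = 0.0044), the 1 called of 27 bile duct and progenitor markers. Hbb-b1, a beta globin, fell by 0.68 (SE 0.17, adjusted p = 0.018), a call that ended on leaving out PH30 rat 130 or sham rat 143, and was the 1 called of 16 red cell markers. Of 26 lymphocyte markers and of 20 mast cell, platelet and mesothelial markers 0 were called by limma, with 3 and 1 at an unadjusted p below 0.05. The mean of the neutrophil list was -0.07 to 0.20 in PH30 rats, against -0.22 to -0.00077 in sham rats, that of the stellate and matrix list -0.16 to 0.18 in PH30 rats, against -0.15 to 0.014 in sham rats, and that of the endothelial list -0.16 to 0.18 in PH30 rats, against -0.16 to 0.17 in sham rats. For the lymphocyte list it was -0.047 to 0.11 in PH30 rats, against 0.022 to 0.14 in sham rats, for the bile duct list -0.043 to 0.078 in PH30 rats, against -0.13 to 0.021 in sham rats and for the red cell list -0.054 to 0.19 in PH30 rats, against 0.033 to 0.21 in sham rats, so that the groups overlapped in each of these 6. The part of changes in cell numbers in the differences above was not tested.

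**Figure D5:**
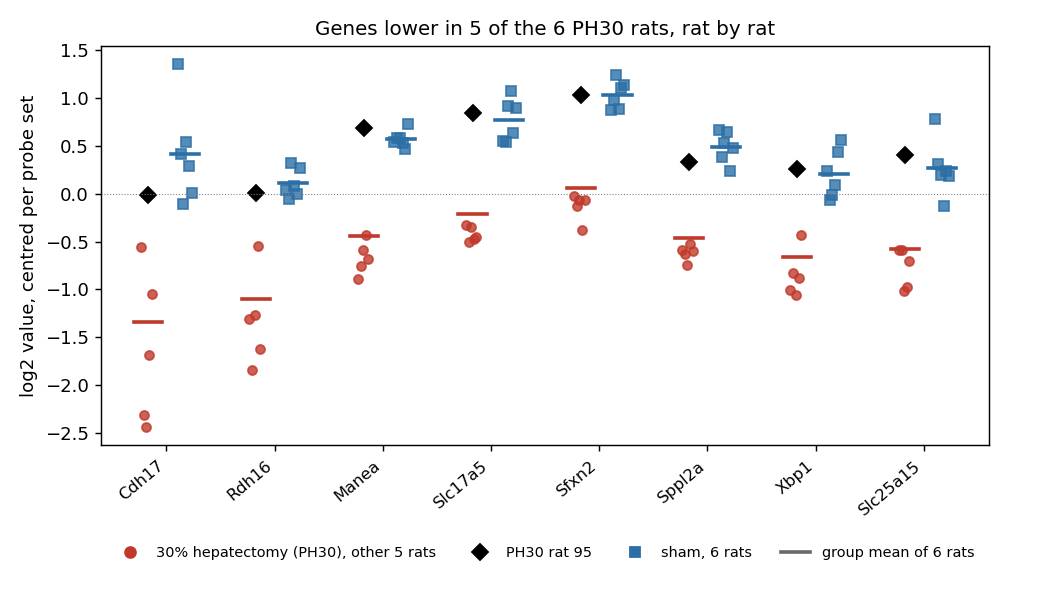
Centred log2 values of 8 genes in each PH30 rat (left, circles; black diamond, rat 95) and each sham rat (right, squares), with group means as bars. In all 8 the other 5 PH30 rats lie below every sham rat, while rat 95 lies within the sham range.

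A set of genes was lower in 5 PH30 rats and not in rat 95. Among the 606 called lower, 154 had the other 5 PH30 rats below all sham rats and rat 95 not below them. In 139 of the 154 rat 95 lay in the sham range and in 15 above it. The same count was 10 to 33 when 1 of the other PH30 rats was taken as the exception. Among the 399 called higher, 77 had rat 95 as the only PH30 rat not above all sham rats, against 7 to 29 for another rat. Cdh17, the liver-intestine cadherin, read -2.44, -1.36 and -0.011 in PH30 rats, against -0.11, 0.35 and 1.35 in sham rats (-1.76, SE 0.45, adjusted p = 0.02), a call that ended on leaving out PH30 rat 98 or 99 or sham rat 141. Rdh16, a retinol dehydrogenase, read -1.84, -1.29 and 0.0071 in PH30 rats, against -0.055, 0.058 and 0.32 in sham rats (-1.20, SE 0.25, adjusted p = 0.0067). Rat 95 was the highest PH30 rat in both genes, at -0.011 and 0.0071.

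Slc17a5, the sialic acid exporter of lysosomes, read -0.51, -0.40 and 0.84 in PH30 rats, against 0.54, 0.76 and 1.07 in sham rats (-0.97, SE 0.25, adjusted p = 0.019). Sppl2a, a protease within the membranes of lysosomes and endosomes, read -0.75, -0.60 and 0.33 in PH30 rats, against 0.24, 0.50 and 0.66 in sham rats (-0.95, SE 0.21, adjusted p = 0.0077). Manea, an endomannosidase that trims glycans in the Golgi, read -0.89, -0.64 and 0.69 in PH30 rats, against 0.47, 0.56 and 0.73 in sham rats (-1.01, SE 0.21, adjusted p = 0.0068). Xbp1, the factor that enlarges the secretory pathway in the unfolded protein response, fell by 0.87 (SE 0.22, adjusted p = 0.021), a call that ended on leaving out PH30 rat 65 or 99 or sham rat 143, and its difference was -1.05 without rat 95. Of 33 measured genes of that response 2 fell, Xbp1 among them, and 3 rose (median -0.014). Over the fits that left out 1 rat, 0 to 2 fell and 0 to 3 rose. Sfxn2, a carrier of the mitochondrial membrane, read -0.38, -0.068 and 1.03 in PH30 rats, against 0.87, 1.04 and 1.24 in sham rats (-0.97, SE 0.21, adjusted p = 0.0074). The median difference of the 154 genes from sham was -0.44 in PH30, -0.38 in PH70 and -0.195 in PH90. These comparisons share the sham arrays, and the genes were chosen for being low in PH30. Of the 154, 68 (44.2%) were called higher in PH90 than in PH30, against 18.4% of all genes, a comparison that uses again the PH30 arrays in which they were chosen to be low, with Rdh16 (difference 3.08, adjusted p = 9.3e-11) and Cdh17 (difference 3.99, adjusted p = 3.9e-08) among them.

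Other large falls were shared by all 6 PH30 rats or all but 1. Mpv17l, a membrane protein of peroxisomes and mitochondria, read -0.43, -0.04 and 0.43 in PH30 rats, against 0.74, 0.97 and 1.19 in sham rats (-1.03, SE 0.19, adjusted p = 0.0032). Pdcd4, which holds back translation, read -0.23, -0.12 and 0.16 in PH30 rats, against 0.28, 1.01 and 1.16 in sham rats (-0.98, SE 0.21, adjusted p = 0.0075). Tspan12, a tetraspanin, read -1.07, -0.74 and 0.011 in PH30 rats, against 0.10, 0.33 and 0.45 in sham rats (-1.0, SE 0.20, adjusted p = 0.0063), and none of the 3 overlapped. Nox4, an oxidase that makes hydrogen peroxide, read -0.50, -0.015 and 0.99 in PH30 rats, against 0.71, 1.19 and 1.86 in sham rats (-1.24, SE 0.21, adjusted p = 0.0021). Stac3, known from calcium release in muscle, read -2.26, 0 and 1.04 in PH30 rats, against 0.74, 1.38 and 1.48 in sham rats (-1.43, SE 0.31, adjusted p = 0.008), with rat 95 the lowest at -2.26. Both had 5 of 6 PH30 rats below all sham rats.

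Set against the larger resections, the count of genes that differed between PH70 and PH30 depended on the 2 rats that stood apart. PH70 and PH30 differed in 413 genes (2.27%), 320 higher (1.76%) and 93 lower (0.512%) in PH70. The count was 1911 without PH30 rat 95, 1406 without PH70 rat 139 and 2420 without both, 1611 higher and 809 lower. PH90 and PH30 differed in 5715 (31.5%), 3343 higher (18.4%) and 2372 lower (13.1%) in PH90, and in 6298 without both rats. Of the 399 genes higher in PH30 than in sham, 28 were higher still and 6 lower in PH70, but 137 and 14 without both rats. Of the 606 lower genes, 13 were lower still and 3 higher in PH70, but 95 and 18 without both. In PH90, 128 of the 399 were higher and 66 lower, and 195 of the 606 were lower and 137 higher. These splits use again the PH30 arrays by which the 399 and 606 were chosen, so they are not independent of that choice. The choice was made with rat 95 in, which was the highest PH30 rat in 118 of the 399 and the lowest in 106 of the 606. Leaving it out of the comparison alone thus shifts the splits by itself.

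Cell cycle genes moved with this choice. Mki67 read -0.26, 2.62 and 3.0 in PH70 rats, against -0.55, 0.46 and 3.10 in PH30 rats (difference 1.34, adjusted p = 0.16), and without both rats the difference was 2.29 (adjusted p = 7.5e-05). Mcm2 read 0.16, 1.13 and 1.68 in PH70 rats, against -0.33, 0.22 and 0.96 in PH30 rats (difference 0.81, adjusted p = 0.041), and 1.14 without both (adjusted p = 4.5e-05). Of 43 spindle genes 4 were higher in PH70 than in PH30 with all arrays, and 43 without rat 95, without rat 139 and without both. Of 54 ribosomal proteins 20 were higher in PH70 and 0 lower, 33 without both rats. Rps19, Rps20 and Nhp2 were among the genes higher in PH70, by 0.39, 0.43 and 0.71 (adjusted p = 0.019, 0.039 and 0.039). Nr3c1 differed between PH70 and PH30 by -0.11 (adjusted p = 0.72), and by -0.16 without both rats (adjusted p = 0.5). Fmo1 read -3.65, -3.17 and -2.90 in PH90 rats, against -0.52, -0.17 and 0.42 in PH30 rats (difference -3.14, adjusted p = 4.3e-13). Cyp7a1, not called in PH30 against sham, differed between PH90 and PH30 by -3.52 (adjusted p = 1.1e-06).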

How the data were processed

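Liver RNA of 30 rats was measured on 30 arrays in 5 groups of 6, taken from the stated treatments. The authors deposited log2 values, which Expression Console of Affymetrix had made by RMA (robust multi-array averaging), per the submitters' processing notes; its version was not given in the sources used here. The table does not state its scale, and log2 is taken from RMA. Values run from -6.04 to 5.44, array medians from -0.0088 to 0.022. Each probe set has a median of 0 across arrays (tolerance 5e-07): it had been centred, and levels are lost. Signal over background is unknown, and the number of arrays limits the precision. No slide or scan date is given in the labels, so batches could not be examined.

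Of 29489 probe sets, 18511 had exactly 1 gene symbol in the platform annotation, 575 several and 10403 none. The Entrez IDs of 18394 were found in a RefSeq table (GRCr8), and 0 symbols changed. Probe sets of a gene were averaged, giving 18166 genes. In 291 genes this joined more than 1 probe set, which correlated below 0 in 74. No 2 arrays held the same values. limma 3.58.1 in R 4.3.3 fitted 1 mean per group to all 30 arrays, with eBayes, two-sided tests and 25 residual and 3.71 prior degrees of freedom. The fit was also tested on simulated data.

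The comparison, the members and the 53 gene lists were chosen with earlier results of these data known, so no list is independent evidence, and lists are given as counts and medians without a set test. Genes open to naming were the 25 largest rises and 25 largest falls, up to 6 called members of each list (the 2 of smallest p where none was called) and 10 genes followed whatever their result. The text names 102 of these 176, chosen after their values were seen and with preference for calls that held. Alternatives were the 12 arrays alone, leaving out rats, array weights, a robust prior, 2 other scalings and 2 other choices of probe set. Both scalings (array medians subtracted and quantile normalisation) were applied to the centred values, since signals before centring were not at hand. PH30 was also set against unoperated, PH70 and PH90 rats with and without rats 95 and 139. Promoters were matched by gene symbol.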

Additional observations from a re-analysis of the deposited data

Results flagged for a closer look

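In the 102 named genes, 204 groups of 6 rats were looked at for a rat whose gap to the next, divided by the range of the group, exceeded Dixon's 95% value of 0.625. Such a rat was found in 17 groups, 10 of them through PH30 rat 95. Chance gives about 1 in 20 groups only if groups are independent and not chosen by their values. Neither held, so the 17 cannot be judged against that rate. The same rats recur in every gene, and the genes were named after their values were seen. Slc25a15, Manea, Sppl2a, Sfxn2 and Slc17a5 also belong to the set defined by rat 95 being the exception. Rat 95 was the high end in Mcm5 (0.71), E2f7 (0.8), Cdkn1a (0.703), Rps20 (0.793), Slc25a15 (0.696), Manea (0.712), Sppl2a (0.792), Sfxn2 (0.746) and Slc17a5 (0.864), and the low end in Tgfb1 (0.641). Without it the call of E2f7 was lost (adjusted p = 0.066) and those of the other 8 called genes were kept. Other PH30 rats were rat 99 in Hgf (0.673) and rat 65 in Timp1 (0.692). Among sham rats, rat 112 stood off in Alb (0.706) and Pon3 (0.664), rat 45 in Acvr2a (0.64), and rat 141 in Ehd3 (0.683) and Pdcd4 (0.636). Their parts in the calls are given by the fits that left out 1 rat.

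Probe sets without a single gene symbol were not used in the comparison. Fitted in the same way, 279 of 10978 were called (2.54%), 152 higher and 127 lower in PH30 than in sham, against 5.53% of named genes. They are unnamed here.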

How the results depend on the processing

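No paired analysis was possible because each rat number belongs to 1 rat and the groups share none. The 1005 calls (399 higher, 606 lower) were 1984 (886 and 1098) without PH30 rat 95 and PH70 rat 139, 1938 (833 and 1105) with array weights and 2111 (890 and 1221) after quantile normalisation of the centred values. With the PH30 and sham arrays alone and rat 95 left out, an alternative chosen after seeing the data, they were 2291 (976 and 1315). Leaving out each rat in turn gave 626 to 1527 calls, 238 to 615 higher and 363 to 912 lower. The other 5 alternatives stayed within 1.5 times of the reported counts, from 980 calls (384 and 596) in genes with 1 probe set to 1286 (485 and 801) with the 12 arrays alone; the share of higher calls was 34.3 to 44.7% throughout. The 413 calls of PH70 against PH30 were 1911 without PH30 rat 95, 1406 without PH70 rat 139 and 2420 without both, alternatives chosen after seeing the data; under the same 3, PH30 against unoperated (1789 as reported) gave 2064 to 2665 and PH90 against PH30 (5715) gave 5882 to 6298. The cause of these shifts was not tested. With the 12 arrays alone the calls of Plk1, Egr1, Acvr2a, Egfr, Timp1 and Lcn2 were lost and Ccnd1 was called; Timp1 was lost and Ccnd1 and Cdk1 were called after quantile normalisation. Of the 102 named genes, 2 reversed, neither of them called: Cdkn1a gave -0.023 in all 3 fits without rat 95 and -0.023 to 0.50 over the fits that left out a rat, and Cyp7a1 gave -0.028 without sham rat 114, -0.18 without sham rat 143 and up to 0.37 without sham rat 45. Of 93 named calls 75 held in all 12 fits that left out a rat. The median difference of all genes was 0.0108 as reported and 0.0068 under both other scalings. Planned choices were all run.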
